A study of Mus musculus with 6 samples.

Results

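The genes described here encode enzymes of the tricarboxylic acid (TCA) cycle in mouse liver: citrate synthase (Cs), the 3 subunits of NAD-dependent isocitrate dehydrogenase (Idh3a, Idh3b, Idh3g), 2 parts of the oxoglutarate dehydrogenase complex (Ogdh, Dlst), a subunit of succinyl-CoA ligase (Suclg1), fumarase (Fh1) and mitochondrial malate dehydrogenase (Mdh2). They were chosen by gene symbol, and 9 of the 54232 genes of the table were members. Their levels were measured by RNA sequencing of livers from Nogo-/- mice and from wild-type littermates, all aged 8 weeks and kept on normal chow, with 3 libraries per genotype. Nogo is the product of Rtn4, a reticulon protein of the endoplasmic reticulum. The study's title asks how loss of Nogo affects insulin signalling. The labels give no sex, strain, allele or part of Rtn4 that was removed, and name no tissue-specific Cre, and they do not say that each library came from a separate animal. The p-values therefore measure the spread between these libraries.

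The TCA cycle runs in the mitochondrial matrix and oxidises the acetyl group of acetyl-CoA to carbon dioxide, handing electrons to NAD+ and ubiquinone for the respiratory chain. Its enzymes are encoded in the nucleus and imported. In liver the cycle also supplies carbon for glucose, fatty acid and amino acid synthesis: malate and oxaloacetate leave toward gluconeogenesis, and citrate leaves toward lipid synthesis. Messenger RNA levels, as measured here, do not give enzyme amount or flux.

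Library totals ran from 17568223 to 20902369 counts, and each member had 467 to 4915 counts in every library. At a member's mean count over the 6 libraries, counting error alone was 1.58% to 3.88% of a level. Levels are given as CPM, which are counts scaled to a common library size with TMM factors. Rtn4, read as a check of the labels, had 40.5 to 56.0 CPM in wild type and 4.63 to 8.22 CPM in knockout. The libraries carry the numbers of their labels: wild type 2, 4 and 11, and knockout 1, 2 and 4. They differed in the share of counts on the 37 mitochondrially encoded genes, which was 6.90%, 6.17% and 6.71% in wild type 2, 4 and 11 but 28.6%, 19.7% and 11.8% in knockout 1, 2 and 4. Of 13304 tested genes 2268 were called between genotypes. Of the fits with 2 knockout libraries, that without knockout 4 called 4046 genes, and those without knockout 1 or 2 called 804 and 979. Results are therefore given with and without knockout 4. That library was singled out from these same calls, and its Rtn4 level, 4.69 CPM, was near that of knockout 1, 4.63 CPM. Adjusted p-values from fits without knockout 4 thus come after a choice made on the outcome. They describe the libraries kept and do not stand as separate support. Knockout 4 alone against wild type gave 25 calls, but there the spread comes from wild type only, and no such fit was run for knockout 1 or 2.

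The livers expressed hepatocyte genes: 6 markers, of which Alb made up most of the sum, added up to 84844 to 102308 CPM in wild type and 74450 to 108500 CPM in knockout. Of the 6, 0 were called by edgeR, with 1 higher (Apoa1) and 1 lower (Cyp2e1) at an unadjusted p under 0.05. Cyp2e1 was at 6171, 6356 and 6602 CPM in wild type and 2467, 2414 and 5766 CPM in knockout 1, 2 and 4, so it too was lowest in knockout 1 and 2 (edgeR, adjusted p = 0.0975). Apoa1 was at 9643 to 12690 CPM in wild type and 13946 to 19096 CPM in knockout (edgeR, adjusted p = 0.0903). Markers of blood-borne immune cells were higher in knockout from low levels. The 7 tested T and NK cell markers summed to 3.63 to 4.60 CPM in wild type and 9.39 to 19.0 CPM in knockout, with 5 called. The 5 B cell markers summed to 3.18 to 3.76 and 9.09 to 16.5 CPM, with 4 called. The 3 tested neutrophil markers summed to 2.52 to 3.30 and 6.68 to 16.5 CPM, with 3 called, and Ly6g, a defining neutrophil gene, was at 0 counts in 5 of the 6 libraries. Of 6 markers of sinusoidal endothelium 3 fell, the sums being 133 to 167 CPM in wild type and 92.0 to 146 CPM in knockout. The part of cell make-up and of mitochondrial share in the results below was not tested, and in bulk tissue fewer cells of a type cannot be told apart from less RNA per cell.

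Of the 9 enzymes, 1 fell in knockout liver, 0 rose and 8 did not pass the test. The gene that fell was Dlst. Calls needed an adjusted p (Benjamini-Hochberg, over all tested genes) under 0.05 in edgeR's quasi-likelihood test. Of all tested genes 17.0% were called, 8.76% as higher and 8.29% as lower, so 1 of 9 is near the background. At an unadjusted p under 0.05, 2 of the 9 were lower and 0 higher in edgeR, where 16.9% of all tested genes were lower and 17.1% higher. DESeq2 and limma-voom each called 2 lower and 0 higher, with 20.6% and 18.1% of genes called. Over other scalings and filters 17.1% (DESeq2 size factors), 17.0% (library totals), 17.2% (mitochondrial genes taken out), 13.9% (no low-count filter), 17.9% (at least 1 CPM in 3 libraries) and 12.7% (replicate block) of genes were called. The median log2 fold change (knockout over wild type) of the 9 was −0.18, against 0.01 over all tested genes, and 7 of the 9 had a value below 0. All 9 passed the filter on low counts. Without knockout 4 the count was 4 of 9 lower, with 29.4% of genes called, 15.7% as lower: Idh3b, Dlst, Suclg1 and Mdh2. With knockout 4 alone against the 3 wild types, the median log2 fold change of the 9 was 0.11. There the spread comes from wild type only.

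**Figure D1:**
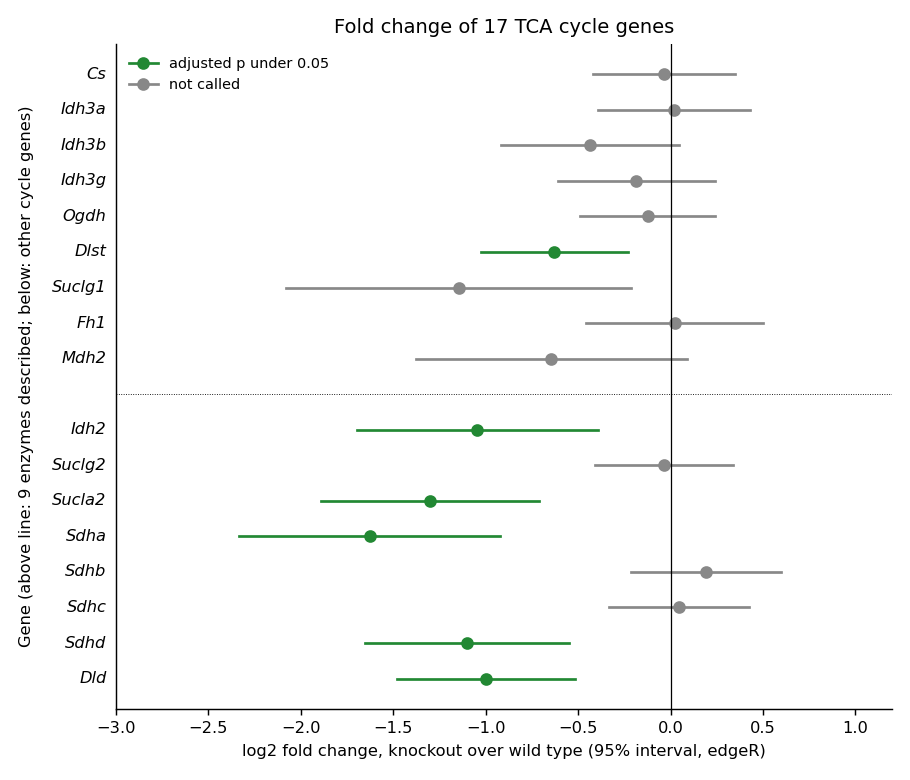
Log2 fold change of 17 TCA cycle genes, knockout over wild type (x axis), with 95% intervals from edgeR; one row per gene, green where the adjusted p was under 0.05. Dlst is the green gene among the 9 at the top, at −0.63, while the interval of Suclg1 reaches from −2.08 to −0.21 and those of Cs, Idh3a and Fh1 lie around 0.

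Citrate synthase, the entry enzyme that joins acetyl-CoA to oxaloacetate, had nearly the same level in both genotypes. Cs (ENSMUSG00000005683, chromosome 10 from 128337734 to 128362479, plus strand, mm10) was at 95.3, 106 and 97.8 CPM in wild type 2, 4 and 11 and at 99.1, 82.5 and 110 CPM in knockout 1, 2 and 4. The groups overlapped, with the lowest and the highest value both in knockout. The log2 fold change was −0.04 ± 0.17 (SE), with a 95% interval of −0.42 to 0.35 (edgeR, adjusted p = 0.906). Of the 50-base words of its transcript, 4% are shared with Csl, a related gene, so a few of its reads may be counted elsewhere.

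The subunits of isocitrate dehydrogenase 3, which converts isocitrate to oxoglutarate and is a control point of the cycle, did not pass the test, and their levels differed in how far knockout 1 and 2 lay below wild type. Idh3a, the catalytic subunit (ENSMUSG00000032279, chromosome 9 from 54586334 to 54604661, plus strand), was at 37.4, 30.9 and 37.9 CPM in wild type and 30.9, 33.3 and 43.3 CPM in knockout 1, 2 and 4. The groups overlapped, and its log2 fold change was 0.02 ± 0.19, with an interval of −0.39 to 0.43 (edgeR, adjusted p = 0.957). Idh3b, a regulatory and structural subunit (ENSMUSG00000027406, chromosome 2 from 130279309 to 130284547, minus strand), was at 182, 187 and 175 CPM in wild type and 120, 103 and 179 CPM in knockout. Here knockout 1 and 2 were below every wild-type library and knockout 4 was among them.

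Over all libraries the log2 fold change of Idh3b was −0.44 ± 0.22 (interval −0.92 to 0.04, edgeR, adjusted p = 0.183). Without knockout 4 it fell by 0.71 on the log2 scale (adjusted p = 0.00778), and with knockout 4 alone the value was −0.02. Idh3g, the other regulatory subunit (ENSMUSG00000002010, chromosome X from 73778963 to 73786897, minus strand), was at 44.9, 46.0 and 46.7 CPM in wild type and 40.5, 31.2 and 49.3 CPM in knockout. Knockout 1 and 2 were below and knockout 4 above the narrow wild-type range. Its log2 fold change was −0.18 ± 0.19 (interval −0.61 to 0.24, edgeR, adjusted p = 0.529), and −0.37 without knockout 4 (adjusted p = 0.132).

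In the oxoglutarate dehydrogenase complex, which makes succinyl-CoA, the core gene Dlst fell while Ogdh did not pass. Dlst encodes the succinyltransferase core of the complex, which carries lipoic acid (ENSMUSG00000004789, chromosome 12 from 85110833 to 85134845, plus strand). It was at 149, 152 and 147 CPM in wild type and at 85.8, 87.5 and 116 CPM in knockout 1, 2 and 4. All knockout libraries lay below all wild-type libraries, as they did for 19.2% of tested genes, and knockout 4 was nearest to wild type. Its mean was 149 ± 2.66 CPM in wild type and 96.5 ± 17.1 CPM in knockout (SD, n = 3), and its log2 fold change −0.63 ± 0.18 (interval −1.03 to −0.23, edgeR, adjusted p = 0.0389). This call was lost in 5 of the 6 fits that left out 1 library. Leaving out wild type 2, 4 or 11 gave an adjusted p of 0.126, 0.134 or 0.0697, with 6.03%, 4.57% and 12.3% of all genes called. Leaving out knockout 1 or 2 gave 0.122 or 0.115, with 5.90% and 7.20% called. Without knockout 4 it was kept (−0.80, adjusted p = 0.00396), and with knockout 4 alone the value was −0.36 (adjusted p = 0.286).

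Ogdh, the thiamine-dependent dehydrogenase that starts the reaction (ENSMUSG00000020456, chromosome 11 from 6291633 to 6356642, plus strand), was at 161, 178 and 152 CPM in wild type and 147, 145 and 158 CPM in knockout. Knockout 1 and 2 were just below the lowest wild-type library and knockout 4 was within the range. The log2 fold change was −0.12 ± 0.16 (interval −0.49 to 0.24, edgeR, adjusted p = 0.629). Ogdh lies on the same chromosome as Rtn4, which spans 29692947 to 29744331. So do Mdh1 (from 21556787 to 21572367), Acly (from 100476353 to 100528000) and Slc25a11 (from 70644196 to 70647479), which are described below. The part of this position in their values was not tested.

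Suclg1 had the largest difference of the 9, and it came from knockout 1 and 2. It encodes the alpha subunit that both succinyl-CoA ligases share, enzymes that make GTP or ATP from succinyl-CoA (ENSMUSG00000052738, chromosome 6 from 73248382 to 73276911, plus strand). Wild type was at 174, 189 and 171 CPM, and knockout 1, 2 and 4 at 40.6, 47.6 and 153 CPM. The groups did not overlap, which held in either direction for 38.9% of tested genes, but knockout 4 was far closer to wild type than to the other knockout libraries. Its mean was 178 ± 9.40 CPM in wild type and 80.4 ± 63.1 CPM in knockout (SD, n = 3), and its log2 fold change of −1.15 ± 0.42 missed the threshold (interval −2.08 to −0.21, edgeR, adjusted p = 0.0842). Without knockout 4 it fell by 2.02 on the log2 scale (adjusted p = 0.000140), and with knockout 4 alone the value was −0.22 (adjusted p = 0.510).

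Fumarase and malate dehydrogenase close the cycle. Fh1, which hydrates fumarate to malate (ENSMUSG00000026526, chromosome 1 from 175600374 to 175625635, minus strand), was at 216, 199 and 228 CPM in wild type and 196, 170 and 287 CPM in knockout 1, 2 and 4. The knockout libraries lay on both sides of wild type, with knockout 4 the highest of all 6. The log2 fold change was 0.02 ± 0.22 (interval −0.45 to 0.50, edgeR, adjusted p = 0.952). Mdh2, which regenerates oxaloacetate (ENSMUSG00000019179, chromosome 5 from 135778480 to 135790398, plus strand), was at 167, 165 and 184 CPM in wild type and 70.9, 73.7 and 185 CPM in knockout. Knockout 4 matched the highest wild-type library, while knockout 1 and 2 were far below all of them. Over all libraries the log2 fold change was −0.64 ± 0.33 (interval −1.38 to 0.09, edgeR, adjusted p = 0.197). Without knockout 4 Mdh2 fell by 1.26 on the log2 scale (adjusted p = 0.000578), and with knockout 4 alone the value was 0.11 (adjusted p = 0.740).

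**Figure D2:**
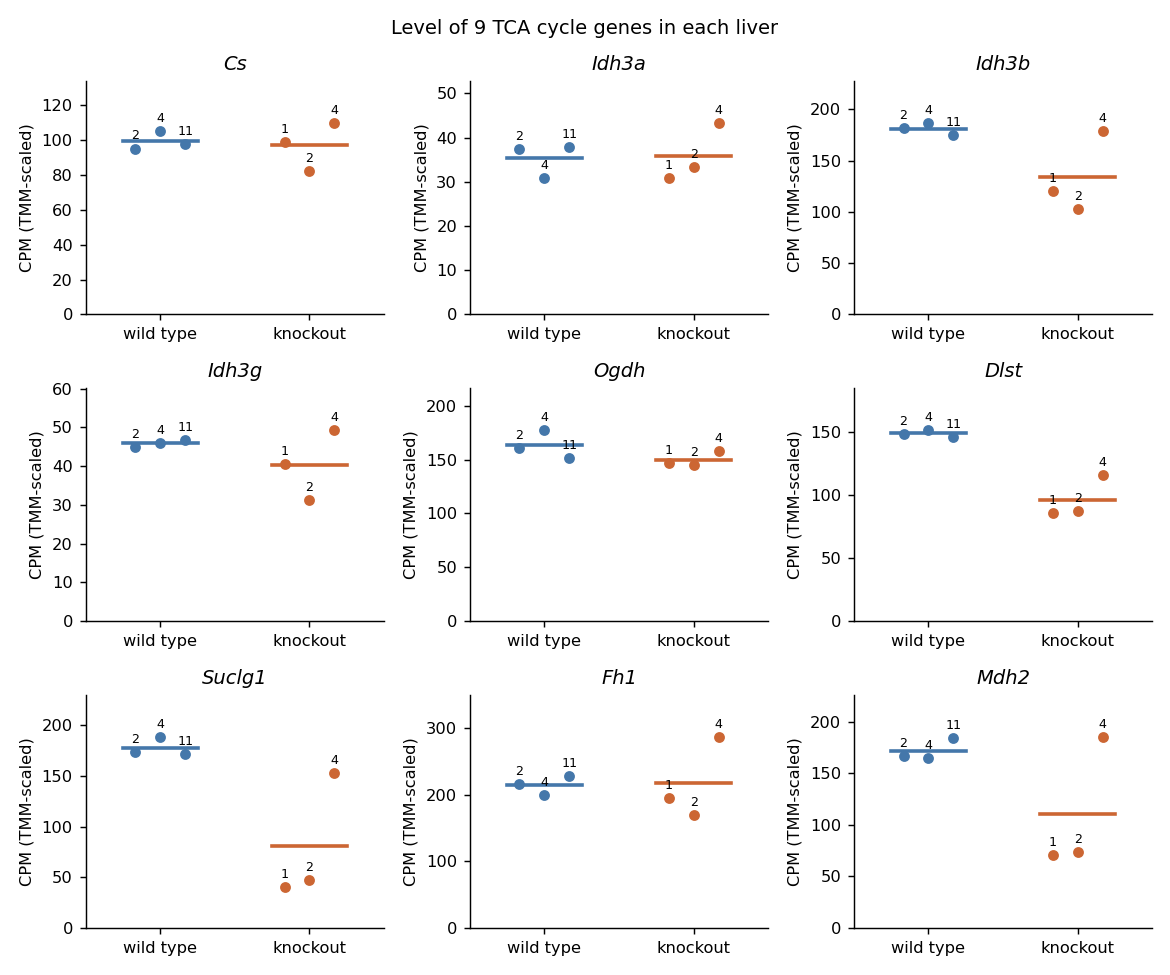
Level in CPM (y axis, from 0) of each of the 9 enzymes in the 6 livers, by genotype; points are libraries with their label numbers and bars are group means. Dlst is lower in all 3 knockout libraries, while for Suclg1, Mdh2 and Idh3b knockout 1 and 2 are low and knockout 4 is at 153, 185 and 179 CPM.

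The same libraries were low for most members. In knockout 1, 8 of the 9 were below all 3 wild-type libraries, all but Cs, where 39.3% of tested genes were; the margin for Idh3a was in the fourth digit. In knockout 2, 8 of the 9 were below, all but Idh3a, against 36.1% of tested genes. In knockout 4, 2 of the 9 were below (Dlst and Suclg1), against 33.8% of tested genes, and 5 were above all wild-type libraries (Cs, Idh3a, Idh3g, Fh1 and Mdh2), against 33.7%. Summed over the 9 enzymes, the level was 1225, 1251 and 1239 CPM in wild type 2, 4 and 11, and 830, 774 and 1281 CPM in knockout 1, 2 and 4. The 2 libraries with the low sums were the 2 with the largest mitochondrial shares, 28.6% and 19.7%, though the lower sum was in knockout 2. With that share as a covariate edgeR called 0 of the 9, and 0 at an unadjusted p under 0.05, with 0% of all genes called; no other tool was run with it. The values for Dlst and Suclg1 were then −0.29 and 0.15. Since the share is higher in every knockout library, this fit has little left to estimate genotype from, and the share and the genotype cannot be told apart.

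**Figure D3:**
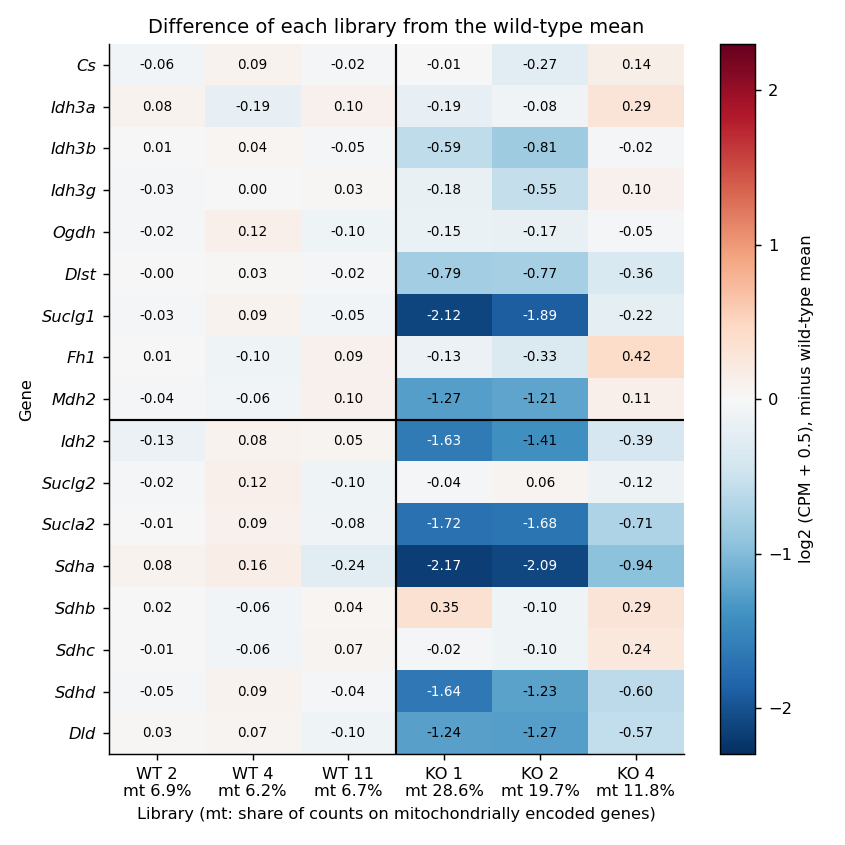
Difference of each library (columns) from the wild-type mean for 17 TCA cycle genes (rows), as log2 of CPM plus 0.5; the column labels give the percent of counts on mitochondrially encoded genes. Blue cells gather in knockout 1 and 2, with Suclg1 at −2.12 and −1.89 there and at −0.22 in knockout 4.

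**Figure D4:**
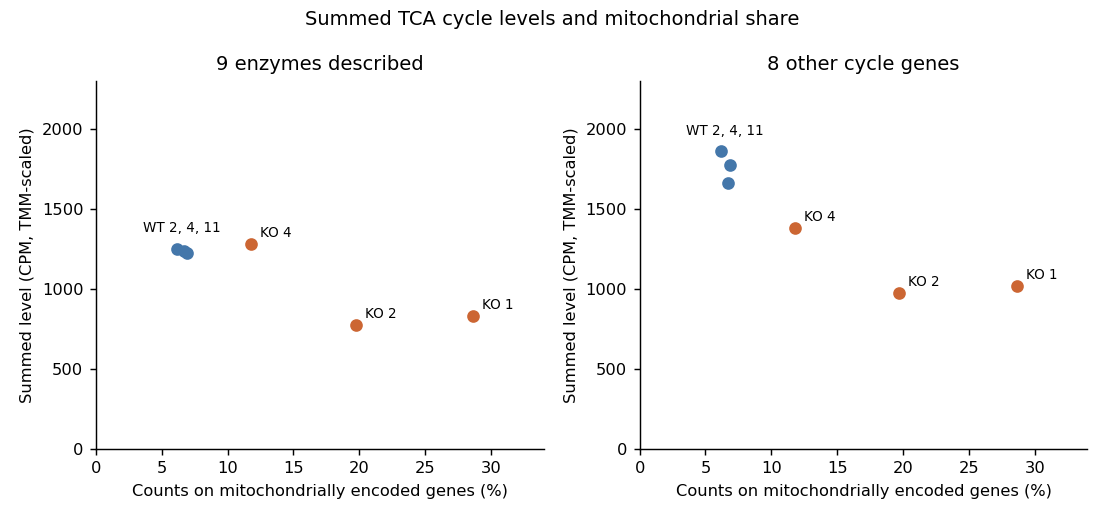
Summed CPM (y axis, from 0) of the 9 enzymes described (left) and of 8 other cycle genes (right) against the percent of counts on mitochondrially encoded genes (x axis), with one point per library. On the left knockout 4, at 1281 CPM, is level with wild type; on the right, at 1378 CPM, it is below it.

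The promoters of the 4 enzymes called lower without knockout 4 are shown, a choice that follows those calls. Being low in knockout 1 and 2 was not particular to these 4, since 8 of the 9 were below wild type in each. They are taken from the 250 bases before the RefSeq start site (GRCm38.p6, 5′ to 3′ on the gene's strand), and 8 of the 9 members had an entry. Where GENCODE starts the gene further upstream, only the bases before that start are shown. Capitals mark matches to 4 motifs searched on both strands. CCGGAAG is the core read by ETS factors such as GABP, and TCAAGGTCA is read by estrogen-related receptors. The NRF1 motif was searched as GCGCA, any base and GCGC. The fourth was the palindrome made of TCTCG and its reverse complement, added after the sequences had been seen. GABP, NRF1 and estrogen-related receptors are known regulators of nuclear genes of mitochondria. The windows are Dlst at chr12:85110583-85110832 (plus), Suclg1 at chr6:73248255-73248381 (plus), Mdh2 at chr5:135778399-135778479 (plus) and Idh3b at chr2:130284548-130284701 (minus).
Dlst: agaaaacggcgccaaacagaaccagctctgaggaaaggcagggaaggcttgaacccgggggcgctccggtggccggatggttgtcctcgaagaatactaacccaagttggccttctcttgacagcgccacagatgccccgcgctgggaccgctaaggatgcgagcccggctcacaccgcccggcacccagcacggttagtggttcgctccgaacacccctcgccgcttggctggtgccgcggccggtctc
Suclg1: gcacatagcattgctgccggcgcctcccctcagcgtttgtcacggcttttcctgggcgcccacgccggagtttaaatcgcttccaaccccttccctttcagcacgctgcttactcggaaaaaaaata
Mdh2: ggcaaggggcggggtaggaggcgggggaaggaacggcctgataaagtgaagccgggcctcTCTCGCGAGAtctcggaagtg
Idh3b: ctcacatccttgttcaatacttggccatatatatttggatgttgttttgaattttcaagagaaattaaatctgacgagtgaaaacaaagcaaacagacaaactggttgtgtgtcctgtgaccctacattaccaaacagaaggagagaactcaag
The 250 bases of Mdh2 hold the palindrome 3 times, starting 190, 63 and 29 bases before the RefSeq start site, and the first of these is within the stretch shown. It is found at least once in 0.390% of the 32851 RefSeq promoter entries. The 250 bases of Dlst, Suclg1 and Idh3b hold none of the 4 motifs. Of the 8 members with an entry, 1 (Idh3g) has CCGGAAG, found in 6.91% of all promoters, 0 have the NRF1 motif, found in 3.74%, and 0 have TCAAGGTCA, found in 0.387%. Of 7 other cycle genes with an entry, the NRF1 motif was found in 3 (Sucla2, Sdha and Sdhd). Such matches describe the letters only.

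Proportions between subunit genes of one enzyme were compared as ratios of raw counts, which do not depend on how libraries are scaled. Over all 15 pairs, 12 had knockout ratios that did not overlap the wild-type ratios, and 3 overlapped. The pairs include cycle genes that are not members: Dld, Suclg2, Sucla2 and the genes of succinate dehydrogenase. Some set a called gene, such as Sdha, against one not called, such as Sdhb. The count is thus not separate from the calls of single genes. Among the 12 is Suclg2 to Sucla2, the partners of different ligases rather than subunits of the same enzyme. No such share was computed over other pairs of genes, and the pairs share genes, so the count describes these pairs only; among single tested genes 38.9% did not overlap. An exact permutation test of 3 against 3 (two-sided) cannot give a p below 0.1, and the smallest p adjusted over the 15 pairs was 0.125, so no single ratio could pass. The ratio of Ogdh to Dlst was 1.08, 1.17 and 1.04 in wild type, against 1.71, 1.66 and 1.36 in knockout 1, 2 and 4, so the knockout ratio was higher in every library (exact p = 0.1, adjusted 0.125). Suclg1 to Suclg2, the GTP-forming partner, went from 0.765, 0.752 and 0.795 to 0.181, 0.198 and 0.721 (exact p = 0.1, adjusted 0.125). Against Sucla2, the ATP-forming partner, the Suclg1 ratio overlapped between genotypes, at 1.50 to 1.55 in wild type and 1.15, 1.31 and 2.15 in knockout (exact p = 1, adjusted 1).

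Within isocitrate dehydrogenase 3, the ratio of Idh3a to Idh3b was 0.205, 0.166 and 0.217 in wild type, against 0.258, 0.324 and 0.242 in knockout 1, 2 and 4 (exact p = 0.1, adjusted 0.125). Idh3b to Idh3g was 4.05, 4.06 and 3.74 in wild type, against 2.96, 3.30 and 3.62 in knockout (exact p = 0.1, adjusted 0.125). Of the knockout libraries, knockout 4 was closest to wild type in both of these ratios. Idh3a to Idh3g overlapped (exact p = 0.4, adjusted 0.429).

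**Figure D5:**
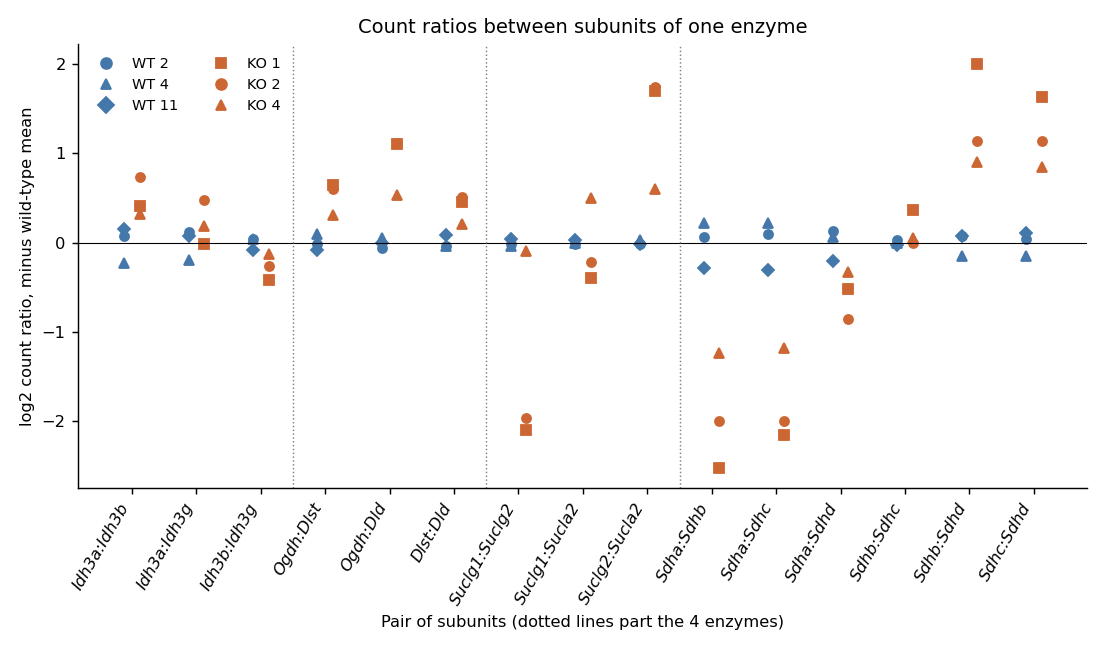
Log2 ratio of raw counts for 15 pairs of subunit genes, minus the wild-type mean (y axis), with one symbol per library; dotted lines part isocitrate dehydrogenase 3, the oxoglutarate dehydrogenase complex, the succinyl-CoA ligases and succinate dehydrogenase. Knockout symbols lie clear of wild type for 12 of the 15 pairs, and knockout 4 (triangle) is often the nearest of them.

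Per kilobase of exon, Fh1 and Idh3b had the highest wild-type levels of the 9 and Idh3a the lowest. On this scale (CPM per kb of merged exons, mean ± SD, n = 3) the order was Fh1 at 63.2 ± 4.30, Idh3b at 52.9 ± 1.78, Mdh2 at 48.2 ± 3.01, Suclg1 at 38.6 ± 2.04, Ogdh at 29.9 ± 2.41, Cs at 17.2 ± 0.93, Idh3g at 17.0 ± 0.33, Dlst at 15.6 ± 0.28 and Idh3a at 6.98 ± 0.77. The wild-type libraries of neighbours overlapped for Idh3b with Mdh2 and for Cs with Idh3g, and for no other neighbours. The order depends on the length used. Per kb of the longest protein-coding transcript Mdh2 (118), Suclg1 (117) and Idh3b (112) came before Fh1 (81.3), Dlst (54.0) came before Ogdh (39.6), and Idh3a was again last (13.7). Isocitrate dehydrogenase 3 thus had its catalytic subunit gene at the lowest level of the 9 by either length.

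Another 8 cycle genes that are not members, a list written with earlier results of these data known, had 5 falls and 0 rises (edgeR; DESeq2 and limma-voom gave the same counts), where 8.29% of all tested genes fell. Sdha, the flavoprotein of succinate dehydrogenase, had a mean of 560 ± 78.3 CPM in wild type and 181 ± 94.4 CPM in knockout (SD, n = 3), and its log2 fold change was −1.63 ± 0.32 (edgeR, adjusted p = 0.0113). Sdhd, a membrane anchor of the same enzyme, fell by 1.10 ± 0.25 (log2), while Sdhb, its iron-sulfur subunit, and Sdhc, the other anchor, had values of 0.19 ± 0.18 and 0.05 ± 0.17. Sucla2 fell by 1.30 ± 0.27 and Suclg2 had −0.04 ± 0.17, with 21.8% of the 50-base words of Suclg2 shared with a copy. Idh2, the NADP-dependent mitochondrial isocitrate dehydrogenase, fell by 1.04 ± 0.29. Dld, the dehydrogenase that the oxoglutarate and pyruvate complexes share, went from 125 ± 7.87 to 62.7 ± 18.5 CPM (edgeR, adjusted p = 0.0151).

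The median of these 8 genes was −1.02, and −0.48 with knockout 4 alone against wild type. Summed, they were at 1776, 1861 and 1660 CPM in wild type and 1016, 972 and 1378 CPM in knockout 1, 2 and 4. Unlike the sum of the 9 enzymes above, their sum was below wild type in knockout 4 as well; the difference between the 2 lists was not tested. The count of 5 was 3, 2, 4, 2 and 2 without wild type 2, 4 and 11 and knockout 1 and 2, and 5 without knockout 4. In these fits 6.03%, 4.57%, 12.3%, 5.90%, 7.20% and 29.4% of all genes were called, in that order. The ratio of Sdha to Sdhb was 2.34, 2.60 and 1.84 in wild type, against 0.391, 0.562 and 0.953 in knockout 1, 2 and 4 (exact permutation p = 0.1, adjusted 0.125).

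Of 12 tested genes that feed pyruvate into the cycle, or control that step, 5 fell, 0 rose and 7 did not pass (edgeR; 7 lower and 0 higher at an unadjusted p under 0.05, and 0 higher in DESeq2 and limma-voom). The background for this and the next lists is that 8.76% of all tested genes rose and 8.29% fell, and that 17.1% were higher and 16.9% lower at an unadjusted p under 0.05. Dlat, the acetyltransferase of the pyruvate dehydrogenase complex, fell (−1.23 ± 0.19, log2), as did its dehydrogenase subunits Pdha1 (−1.72 ± 0.31) and Pdhb (−0.81 ± 0.17). Pdpr, the regulatory subunit of the phosphatase that activates the complex, fell by 2.82 ± 0.38, from 12.7 ± 6.08 to 1.78 ± 0.30 CPM. Of the transcripts of Pdha1 and Pdhb, 16.9% and 30.3% of 50-base words are shared with other genes. Pdk4, a kinase that fasting induces and that switches the complex off, had −0.66 ± 0.43 (edgeR, adjusted p = 0.306) at 1.66 to 6.46 CPM. Pdk1, another kinase that switches the complex off, was the remaining gene that fell (−0.75 ± 0.18, edgeR, adjusted p = 0.0217). It went from 118 ± 20.3 to 70.1 ± 3.74 CPM, so the falls were not of complex and activator genes only. The count was 3 without wild type 2 or 4 or knockout 1 or 2, and 8, of which 1 was a rise, without knockout 4. Of all genes 6.03%, 4.57%, 5.90%, 7.20% and 29.4% were called in these fits, in that order.

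Among 9 tested genes of filling and draining reactions, 4 fell and 1 rose. Pcx, pyruvate carboxylase, which makes oxaloacetate for gluconeogenesis, went from 448 ± 43.3 to 260 ± 52.1 CPM (−0.78 ± 0.20). The propionyl-CoA carboxylase genes Pccb and Pcca, whose product enters at succinyl-CoA, fell (−1.34 ± 0.26 and −1.10 ± 0.27). Mcee, the epimerase of that route, rose by 0.82 ± 0.19, and this call was lost with library totals (adjusted p = 0.0518) and without wild type 2 or 4 or knockout 1 (0.0762, 0.106 and 0.0694, edgeR). Glud1, glutamate dehydrogenase, had −0.45 ± 0.18 (edgeR, adjusted p = 0.106). The count of 5 was 1 without wild type 2 or 4 or knockout 1, and 2 without knockout 2. In these fits 6.03%, 4.57%, 5.90% and 7.20% of all genes were called, in that order.

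The cytosolic counterparts numbered 3 falls and 0 rises among 6 genes (5 lower and 0 higher at an unadjusted p under 0.05 in edgeR, and 0 higher in DESeq2 and limma-voom). Acly, which splits citrate in the cytosol, fell by 1.52 ± 0.20, and Aco1, cytosolic aconitase, by 0.97 ± 0.20. Me1, malic enzyme, fell by 1.02 ± 0.24; copies share 32.8% of its words. Mdh1, the cytosolic partner of Mdh2, was at 600, 555 and 552 CPM in wild type and 267, 250 and 561 CPM in knockout 1, 2 and 4 (−0.66 ± 0.29, edgeR, adjusted p = 0.138). As for Mdh2, knockout 1 and 2 were far below wild type and knockout 4 was not; for Mdh1 knockout 4 was within the wild-type range, and for Mdh2 just above it.

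Of 6 carriers of cycle intermediates 2 fell and 0 rose (edgeR, DESeq2 and limma-voom; 2 lower and 0 higher at an unadjusted p under 0.05). They were the aspartate-glutamate carriers Slc25a12 (−0.98 ± 0.22) and Slc25a13 (−0.63 ± 0.19). Slc25a11, the oxoglutarate carrier, had −0.36 ± 0.18, and Slc25a21 0.27 ± 0.19. Without wild type 2 or 4 or knockout 1 or 2 edgeR called 0 carriers, and without wild type 11 it called 1. Of all genes 6.03%, 4.57%, 5.90%, 7.20% and 12.3% were called in these fits, in that order. Of 7 genes for assembly of succinate dehydrogenase and for lipoic acid attachment, 1 rose and 0 fell (edgeR, DESeq2 and limma-voom; 0 lower at an unadjusted p under 0.05). The riser was Sdhaf1, an assembly factor, at 1.07 ± 0.26 from 3.14 ± 0.78 CPM, although E130208F15Rik shares 69.0% of its words. It was not called with library totals, or without wild type 2 or 4 or knockout 1 or 2. Lias, which makes the lipoyl group that Dlst carries, had −0.22 ± 0.16 (edgeR, adjusted p = 0.355), and Lipt2 and Sdhaf4 had 0.50 ± 0.30 and 0.19 ± 0.19.

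The mitochondrially encoded mRNAs moved the other way from the cycle genes that fell. All 13 rose, with a median log2 fold change of 1.94, and their medians were 2.66, 1.77 and 1.10 in knockout 1, 2 and 4. Other genes share 98.0% to 100% of the 50-base words of mt-Co2, mt-Co3, mt-Atp6, mt-Nd4l and mt-Nd3. Their levels thus depend on how shared reads were counted, which is not given. For mt-Nd1, mt-Nd6, mt-Cytb and mt-Atp8 the share was 0%, and for the rest it was 7.61% to 62.2%. Nuclear genes of the respiratory chain and ATP synthase were taken by the start of their symbols, such as Ndufa, Ndufb and Uqcr. The start Ndufa also matches symbols of assembly factors (Ndufaf), so the list can go beyond subunits. Of its 82 tested genes, 21 rose and 5 fell, with a median of 0.25, against 8.76% and 8.29% of all tested genes. Their medians were 0.15, −0.04 and 0.46 in knockout 1, 2 and 4, beside −0.19, −0.55 and 0.10 for the 9 TCA cycle enzymes. The 3 lists were measured in the same libraries, and the differences between them were not tested.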

How the data were processed

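Liver RNA (Qiagen RNeasy) was made into SMARTer mRNA-Seq libraries, per the labels' protocols. For the 6 libraries the authors deposited raw counts per gene, as whole numbers without normalization. The submitters' processing notes name the build mm10. Not given in the sources used here are the aligner, counter, annotation and strandedness, so reads of overlapping or copied genes are uncertain. All 54232 rows had a gene name.

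Counts were analysed in R 4.3.3 with edgeR 4.0.16 (quasi-likelihood F test, TMM, filterByExpr, 13304 genes, no covariate, two-sided), called at an adjusted p under 0.05. SE is the size of the log2 fold change over the root of F, and 95% intervals use the test's degrees of freedom. Alternatives used limma 3.58.1, DESeq2 1.42.0 and other scalings and filters. A floor of 3 counts was 0.144 to 0.171 CPM by library totals, without the TMM factors used for the levels, and covers counting error only. Pairs of libraries of 1 genotype differed by 21.0 to 171 chi-square units per degree of freedom, so each counted as 1 sample. The test was also run on counts simulated gene by gene with the fitted spread, in which no library was set apart. That run does not bear on the part played by knockout 4. Coordinates, lengths and shared 50-base words (of a gene's transcripts, also found in another gene) came from GENCODE M21 (54165 identifiers matched), promoters from RefSeq GRCm38.p6.

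Members and lists were chosen with earlier results of these data known. Named were the 9 members, 8 other cycle genes (1 further listed gene is not reported here), up to 4 genes of each further list by smallest p, with Pdha1, Pcx, Pdk4 and Glud1, and the 5 genes most and 5 least correlated with the members' mean. Csl, E130208F15Rik, Alb, Apoa1, Cyp2e1, Ly6g and Pdk1 were named outside this rule, after values were seen. Tf, a listed marker, was not analysed here.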

Additional observations from a re-analysis of the deposited data

How the results depend on the processing

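Of the 9 enzymes, 1 was called in the main analysis. The count was 2 with library totals, DESeq2 or limma-voom (Dlst and Suclg1), 3 with no low-count filter (Mdh2 as well), and 1 with DESeq2 size factors, mitochondrial genes taken out or a filter of 1 CPM in 3 libraries. Leaving out 1 library gave 0 to 4 enzymes, 2 to 5 other cycle genes, 3 to 8 pyruvate entry genes, 1 to 6 filling and draining genes, 2 to 5 cytosolic counterparts, 0 to 3 carriers, 0 to 1 assembly and lipoylation genes, and 630 to 4046 of all genes. With the mitochondrial share as covariate, and with knockout 4 alone, edgeR called 0 in each of these 7 lists; over all genes it called 0 (1146 at an unadjusted p under 0.05) and 25 (2649). Scaling by library totals shifted the median log2 fold change over all genes to −0.16 and gave 690 rises and 1566 falls in place of 1165 and 1103, with 0 assembly genes called. With no low-count filter 5 cytosolic counterparts were called.

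The labels give numbers 2 and 4 to both genotypes. Same-numbered libraries had deviations correlated at −0.05 and 0.06, so the numbers were not taken as pairs. With a replicate block, 1686 genes were called, 3 filling and draining genes and 0 carriers; of the 9 enzymes 1 was called, Suclg1 (adjusted p = 0.0196) in place of Dlst (0.153).

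Signs turned for some genes. With the covariate the log2 fold changes were 0.079 for Cs, 0.025 for Idh3g, 0.15 for Suclg1, 0.33 for Mdh2 and 0.10 for Mdh1. With knockout 4 alone they were 0.14 for Cs, 0.11 for Idh3g and 0.11 for Mdh2. With library totals they were −0.15 for Idh3a, −0.16 for Fh1 and −0.13 for Sdhc, and with no low-count filter −0.034, −0.029 and −0.0060. Fh1 was −0.011 with limma-voom. Fits without 1 library gave 0.068 for Cs (without knockout 2), −0.08 and −0.15 for Idh3a and −0.04 and −0.24 for Fh1 (without wild type 4 and knockout 4), 0.015 for Suclg2 (without wild type 4) and −0.072 for Sdhc (without knockout 4). Over such fits Fh1 ran from −0.24 to 0.17 and Suclg2 from −0.095 to 0.015. Idh3b, Ogdh and Dlst were below 0 in all 16 alternatives. The causes were not tested.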

Other observations

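Some genes had a profile over the 6 libraries much like the mean profile of the 9 enzymes, taken as the mean of their centred log2 levels. The 9 did not all share that profile. Correlations between members ran from −0.06 (Idh3a with Ogdh) to 0.98 (Suclg1 with Mdh2). Genes with large differences, such as Suclg1 and Mdh2, weigh most in the mean. Among 8372 candidate genes with a mean of at least 5 CPM the highest Pearson correlations over the 6 libraries were those of Thoc7, Ndufa4, Ggact, Nop10 and Ndufb6, at r = 0.996 to 0.997. Nop10 was at 62.8, 58.0 and 64.0 CPM in wild type and 22.0, 20.0 and 60.9 CPM in knockout 1, 2 and 4, and Ndufa4 was at 384, 411 and 423 and at 169, 146 and 479 CPM. Both were low in knockout 1 and 2, as Suclg1 and Mdh2 were. In knockout 4 Nop10 was within the wild-type range and Ndufa4 above it, while Suclg1 was below its wild-type range and Mdh2 just above.

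The lowest correlations were those of Gabpb1, Fbf1, Csk, Cpd and Actr2, at r = −0.997 to −0.988. Gabpb1 was at 7.31, 6.99 and 7.43 CPM in wild type and 12.1, 12.5 and 7.04 CPM in knockout 1, 2 and 4, and Fbf1 at 5.32, 5.81 and 6.41 and at 25.5, 24.3 and 5.11 CPM. These are the extremes of 8372 correlations over 6 libraries of which 2 stand apart, and they describe those libraries.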
